A study of Homo sapiens with 9 samples.

Results

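The genes described here encode 4 systems of cell guidance cues, the Eph receptors with their ephrin ligands, the Slits with their Robo receptors, the netrins, and the netrin receptors DCC, neogenin and UNC5. They were taken by gene symbol, as every EPHA, EPHB, EFNA, EFNB, SLIT, ROBO, NTN and UNC5A to UNC5D gene in the deposited tables together with DCC and NEO1. This gave 39 genes of the 25593 loci in each table, of which 30 reached 1 FPKM or more in at least 3 of the 9 libraries. FPKM is the number of sequenced fragments per length of transcript and per mapped fragments of the library, so that levels are per length and can be set side by side between genes. The 39 were 9 Eph-A and 5 Eph-B receptors, 5 ephrin-A and 3 ephrin-B ligands, 3 Slits, 4 Robos, 4 netrins and 6 netrin receptors.

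RNA was sequenced from neural crest-like cells made from the established embryonic stem cell line H9, in 3 expansion media with 3 libraries each. In F_FSB, cells had been kept for 4 passages with FGF2 and SB431542 and then for 3 passages with FGF2 alone. In FSB, cells were kept with 5 to 10 ng/ml FGF2 and 3 to 5 µM SB431542, a small molecule that blocks the type I receptors of Nodal, Activin and TGF-β. In F, the medium held FGF2 only. All 3 groups shared what came before, which was 6 days of differentiation with 10 µM SB431542 in a chemically defined medium, a sort by CD271 and CD73, and growth on fibronectin at 5% oxygen up to passage 6 or 7. Every library came from 1 cell line, so the spread between libraries is that between cultures of H9 and not between donors. The growth protocol gives the sort as high in CD271 and without CD73, while another label of the same samples gives both markers as positive.

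Eph receptors are receptor tyrosine kinases that meet membrane-bound ephrins on a neighbouring cell and signal in both cells, usually to repel or to set a boundary. Slits are secreted proteins that repel cells and axons through Robo receptors. Netrins are laminin-related secreted proteins that attract through DCC and repel through UNC5 receptors, while neogenin binds netrins and also the repulsive guidance molecules. In the embryo, ephrins and Slits are known for keeping migrating neural crest cells out of given territories.

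The promoters of 5 genes whose levels in FSB differed from both other groups are shown, 3 lower and 2 higher in FSB, since SMAD proteins, the transcription factors downstream of the blocked receptors, bind short motifs. Each runs from 250 bases before to 50 after the gene's transcription start listed first in RefSeq's table, 5′ to 3′ on the gene's strand, and is RefSeq's sequence on GRCh38.p14. Capitals mark the letters CAGAC on either strand, or GGCGCC.
NTN4, chr12:95791106-95791405, minus strand: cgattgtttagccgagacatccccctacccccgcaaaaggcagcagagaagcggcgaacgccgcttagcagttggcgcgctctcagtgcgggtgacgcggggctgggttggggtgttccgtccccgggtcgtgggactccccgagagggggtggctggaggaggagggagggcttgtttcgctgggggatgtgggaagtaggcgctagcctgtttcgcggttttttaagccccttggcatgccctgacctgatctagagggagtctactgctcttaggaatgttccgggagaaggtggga
EPHA7, chr6:93419510-93419809, minus strand: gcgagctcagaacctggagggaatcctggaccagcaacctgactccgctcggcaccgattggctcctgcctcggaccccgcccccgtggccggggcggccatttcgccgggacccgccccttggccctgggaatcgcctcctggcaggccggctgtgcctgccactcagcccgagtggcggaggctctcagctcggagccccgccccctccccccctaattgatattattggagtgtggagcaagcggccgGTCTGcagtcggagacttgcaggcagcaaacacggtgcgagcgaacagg
EPHA3, chr3:89107371-89107670, plus strand: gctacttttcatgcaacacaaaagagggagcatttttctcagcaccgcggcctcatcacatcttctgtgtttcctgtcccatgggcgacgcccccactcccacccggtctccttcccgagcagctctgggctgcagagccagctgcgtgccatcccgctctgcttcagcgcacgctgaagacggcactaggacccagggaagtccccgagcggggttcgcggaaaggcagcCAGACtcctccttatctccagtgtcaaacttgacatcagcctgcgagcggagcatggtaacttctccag
EFNA2, chr19:1285623-1285922, plus strand: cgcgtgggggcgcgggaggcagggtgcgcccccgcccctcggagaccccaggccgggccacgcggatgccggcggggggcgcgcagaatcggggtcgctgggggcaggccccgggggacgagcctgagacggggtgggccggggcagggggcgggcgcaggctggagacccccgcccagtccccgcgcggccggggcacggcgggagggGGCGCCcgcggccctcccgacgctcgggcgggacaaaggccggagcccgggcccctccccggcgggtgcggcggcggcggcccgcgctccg
EPHB6, chr7:142862506-142862805, plus strand: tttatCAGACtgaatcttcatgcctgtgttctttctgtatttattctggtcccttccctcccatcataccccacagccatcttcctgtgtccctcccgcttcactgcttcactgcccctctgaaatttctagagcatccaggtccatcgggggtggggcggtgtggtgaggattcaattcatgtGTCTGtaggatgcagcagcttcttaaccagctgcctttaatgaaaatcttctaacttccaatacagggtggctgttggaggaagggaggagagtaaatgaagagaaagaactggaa

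RefSeq's promoter table matched 33 of the 39 genes, with 44 promoters, and held none for EFNB3, EPHA10, NTN1, NTN3, UNC5B and UNC5D. CAGAC stood on either strand in 19 of the 44 (43.2%), against 45.3% of all 35116 promoters of the same 300 bases. GGCGCC stood in 8 (18.2%), against 19.2% of all. The palindrome GTCTAGAC and the AP-1 site TGANTCA were in 0 of the 44, and in 0.202% and 7.71% of all promoters. The GC box GGGCGG, searched on both strands, was in 36 of the 44 (81.8%), against 45.0% of all. The promoters of the guidance genes were richer in G and C, with a median of 66.83% against 58.67%, and held a median of 23 CpG pairs against 14. These are matches of letters in a window, and a promoter without a match says nothing about a factor. The pair GGCGCC and GGGCGG can share letters where they adjoin.

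The libraries were first set against their labels. SOX9, a transcription factor of the neural crest, was at 19.5 ± 7.76 FPKM in F_FSB, 34.2 ± 10.9 FPKM in FSB and 32.5 ± 22.7 FPKM in F (SD, n = 3 each). NGFR, which encodes CD271, was at 4.89 ± 3.01, 120.3 ± 15.3 and 19.99 ± 20.4 FPKM in the same order of groups, and NT5E, which encodes CD73, at 63.0 ± 15.0, 20.0 ± 9.37 and 72.9 ± 22.9 FPKM. Of 14 genes listed for neural crest and ectomesenchyme 11 passed the filter on low values, while SOX10 stayed at or under 1.69 FPKM and FOXD3 at or under 0.0250 FPKM in every library. The list summed to 450.6 to 559.6 FPKM in F_FSB, 763.1 to 789.1 in FSB and 521.6 to 561.0 in F. Of the 11, NGFR, TFAP2A, ETS1 and TWIST1 were higher in FSB than in F (log2 changes of 3.44, 2.00, 1.89 and 1.74). PDGFRA was lower (-1.18), and the rest did not pass the threshold used below. Of 12 neuronal markers 4 passed, namely TUBB3, STMN2, SNAP25 and SYT1, and ELAVL4 and NEUROD1 were listed at 0 throughout. The summed neuronal list ran from 110.8 to 151.9 FPKM in F_FSB, 94.7 to 139.0 in FSB and 58.4 to 106.6 in F. The summed endothelial list, of which 5 of 10 passed, ran from 4.83 to 10.6, 8.20 to 15.0 and 8.21 to 14.9 FPKM, with PECAM1, KDR, VWF and CLDN5 at or under 1.74 FPKM in every library and ESAM, the highest, at up to 8.28 FPKM. Of the 5, CDH5 and TIE1 rose in FSB against F (1.95 and 1.10) and TEK and EMCN fell (-1.92 and -1.98). The pericyte and smooth muscle list summed to 352.6 to 499.8 FPKM in F_FSB, 652.4 to 1068 in FSB and 259.0 to 338.1 in F. TAGLN, CNN1 and NOTCH3 were higher in FSB than in F (1.89, 2.02 and 0.91) and CSPG4 was lower (-2.19). ACTA2, MYH11 and RGS5 also passed the filter and did not pass the threshold used below. The central neuroectoderm list, nearly all of it NES, summed to 21.9 to 43.3, 191.4 to 256.7 and 26.9 to 79.2 FPKM, and the melanocyte list, with KIT the highest in FSB, to 1.57 to 5.43, 13.1 to 17.3 and 2.84 to 6.54 FPKM. The Schwann and glial list, mostly PMP22, was lower in FSB, with 62.0 to 90.1, 34.3 to 36.5 and 65.2 to 78.5 FPKM, and the epithelial list overlapped between groups (83.4 to 192.6, 109.5 to 215.2 and 37.3 to 127.9 FPKM). The list of 9 pluripotency genes differed with SB431542, with sums of 6.10 to 8.74 FPKM in F_FSB, 106.5 to 127.1 in FSB and 3.78 to 12.2 in F. LIN28A made up most of it in FSB, and POU5F1, NANOG and TDGF1 stayed at or under 1.15 FPKM. SALL4, DPPA4 and DNMT3B were, like LIN28A, higher in FSB than in F (3.79, 1.44 and 1.03). All of these were lower in F_FSB than in FSB (-3.29, -1.41 and -1.05 for the same genes). ZFP42 did not pass the threshold used below in either (1.45 and -1.40). The part of any of these markers in the results below was not tested. In bulk RNA, fewer cells of a type and less RNA per cell cannot be told apart.

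A pair of likenesses among the libraries touches the results. FSB replicates 1 and 2 were closer to each other than any other pair, with a Pearson r of 0.983 over log2(FPKM + 1) and overlapping Cufflinks intervals for 86.2% of genes tested, against 62.5% to 70.3% for the other pairs within a group. F replicate 1 was closer to F_FSB replicate 1 (r = 0.967, overlap 80.4%) than to F replicates 2 and 3 (r = 0.944 and 0.943). Calls that turn on these libraries are given with and without them. Depth, roughly estimated from 2 to 8 genes per library, was lowest in F_FSB replicate 2, at 60.0% of the deepest library, and at least 82.7% elsewhere.

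Summed by family, the netrins were low in FSB. They amounted to 37.3 ± 18.1 FPKM in F_FSB, 1.88 ± 0.527 in FSB and 23.5 ± 15.9 in F (SD, n = 3 each). Eph-B receptors summed to 80.7 ± 1.12 FPKM in F_FSB, 52.8 ± 1.11 in FSB and 104.0 ± 12.5 in F, and ephrin-B ligands to 54.8 ± 7.74, 35.6 ± 9.86 and 71.6 ± 7.48 FPKM. In all 3 families the libraries of FSB lay below those of both other groups. Netrin receptors summed to 34.8 ± 9.29, 20.7 ± 3.60 and 36.9 ± 2.04 FPKM, and Robos to 55.9 ± 11.4, 38.2 ± 1.53 and 70.5 ± 30.1 FPKM. Slits went the other way, with 35.4 ± 28.5 FPKM in F_FSB, 71.4 ± 2.89 in FSB and 31.2 ± 4.81 in F, though 1 F_FSB library reached 68.0 FPKM, next to the 68.9 to 74.6 FPKM of FSB. Eph-A receptors (33.1 ± 6.57, 32.1 ± 2.60 and 43.1 ± 7.91 FPKM) and ephrin-A ligands (26.0 ± 4.70, 28.8 ± 5.69 and 23.2 ± 8.45 FPKM) differed by less.

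**Figure D1:**
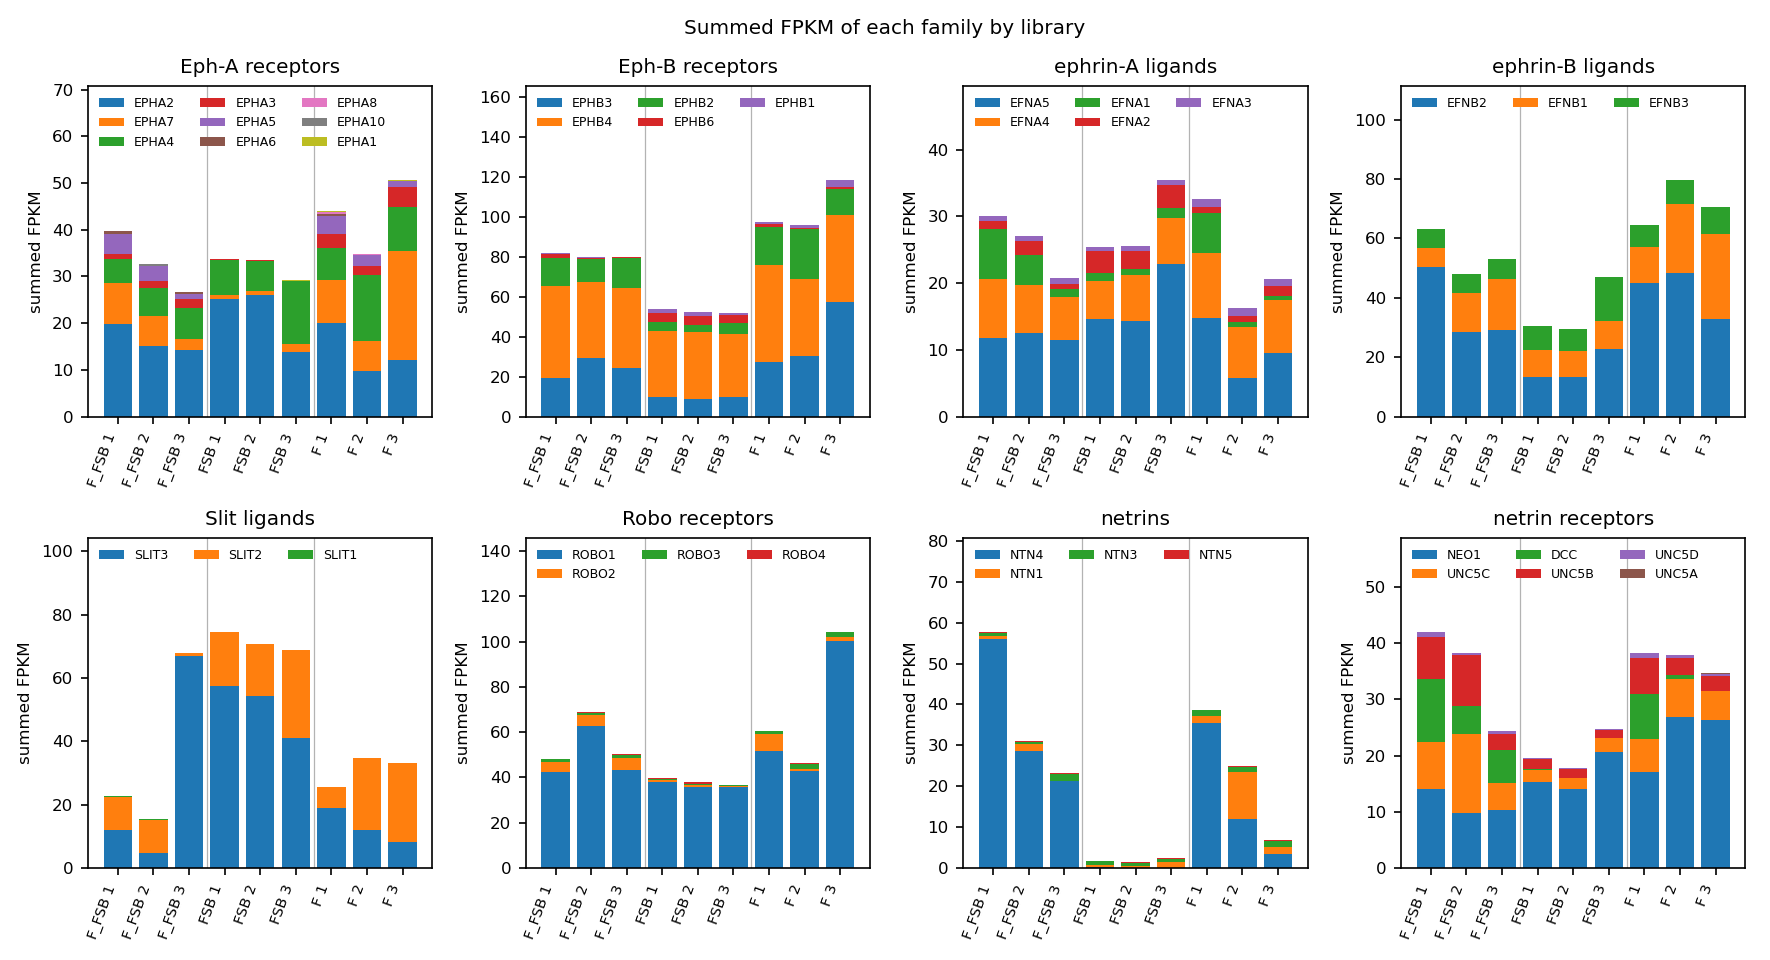
Summed FPKM of each family (vertical axis) in each library (horizontal axis), with the genes of the family stacked. The netrins sit between 1.38 and 2.43 FPKM in the 3 FSB libraries, below every library of F_FSB and F, and the Eph-B sum of 52.0 to 54.0 FPKM in FSB lies below the 79.9 FPKM or more of the other 6 libraries.

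Each gene was tested in 1 limma fit over all 13216 genes that passed the filter, on log2(FPKM + 1), and was called where the Benjamini-Hochberg (BH) adjusted p was under 0.05. Changes are on that log2 scale, where the added 1 makes those of low genes smaller. In FSB against F, 13 of the 30 guidance genes were called, 2 higher and 11 lower. Of all genes tested 41.9% were called, 28.5% higher and 13.4% lower, so the share called was near the background and most calls went the other way. The median change was -0.58 over the 30 genes and 0.14 over all genes. In F_FSB against FSB, where SB431542 was taken away, 16 of the 30 were called, 13 higher and 3 lower, against 41.8% of all genes, 13.7% higher and 28.2% lower. The medians were 0.31 and -0.13. Scaling the libraries by median ratios brought the median over all genes in FSB against F to 0.0075, and the calls among guidance genes then numbered 2 higher and 14 lower. Of all genes called in FSB against F, 50.4% were then higher, against 68.0% before scaling. With FSB replicates 1 and 2 averaged as 1 library, 2 were higher and 9 lower in FSB against F, and 10 higher and 2 lower in F_FSB against FSB. Of all genes called, 69.3% were then higher in the first comparison and 30.9% in the second. Without averaging these shares were 68.0% and 32.7%. With 0.1 in place of the added 1, the changes of some of the genes called were over 1.5 times as large in FSB against F, namely EPHA3 (-4.13), EPHA5 (-4.41), NTN4 (-5.80) and ROBO3 (-1.96), and likewise in F_FSB against FSB for DCC (4.97), EPHA3 (3.15), EPHA5 (4.49), EPHB1 (-2.27) and ROBO3 (1.47). EFNA3 in FSB against F came to -0.61 and was no longer called, and ROBO2 came to -1.77 and was called (limma BH-adjusted p = 0.0416). With no filter on low values UNC5C in FSB against F and EFNB2, EPHA7, EPHB1, EPHB4 and UNC5B in F_FSB against FSB were no longer called (limma BH-adjusted p from 0.0514 for EFNB2 to 0.1001 for EPHA7). Of the 30 genes, 7 passed the filter only through the libraries of 1 group, which was F for EFNA3, EPHB1, NTN1, NTN3 and ROBO3, FSB for EPHB6 and F_FSB for DCC. Passing only through the group where a gene is high favours a difference, so the calls of such genes are no separate support. It does not force one, and NTN1 and NTN3 were called in neither comparison. Leaving out F replicate 1 gave 4 higher in FSB against F, and leaving out FSB replicate 1 gave 1 lower in F_FSB against FSB. Of all genes called in those comparisons, 67.7% and 30.1% were then higher. These 2 comparisons share the FSB libraries, so a gene that is low in FSB enters both, and the values of each are given side by side.

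**Figure D2:**
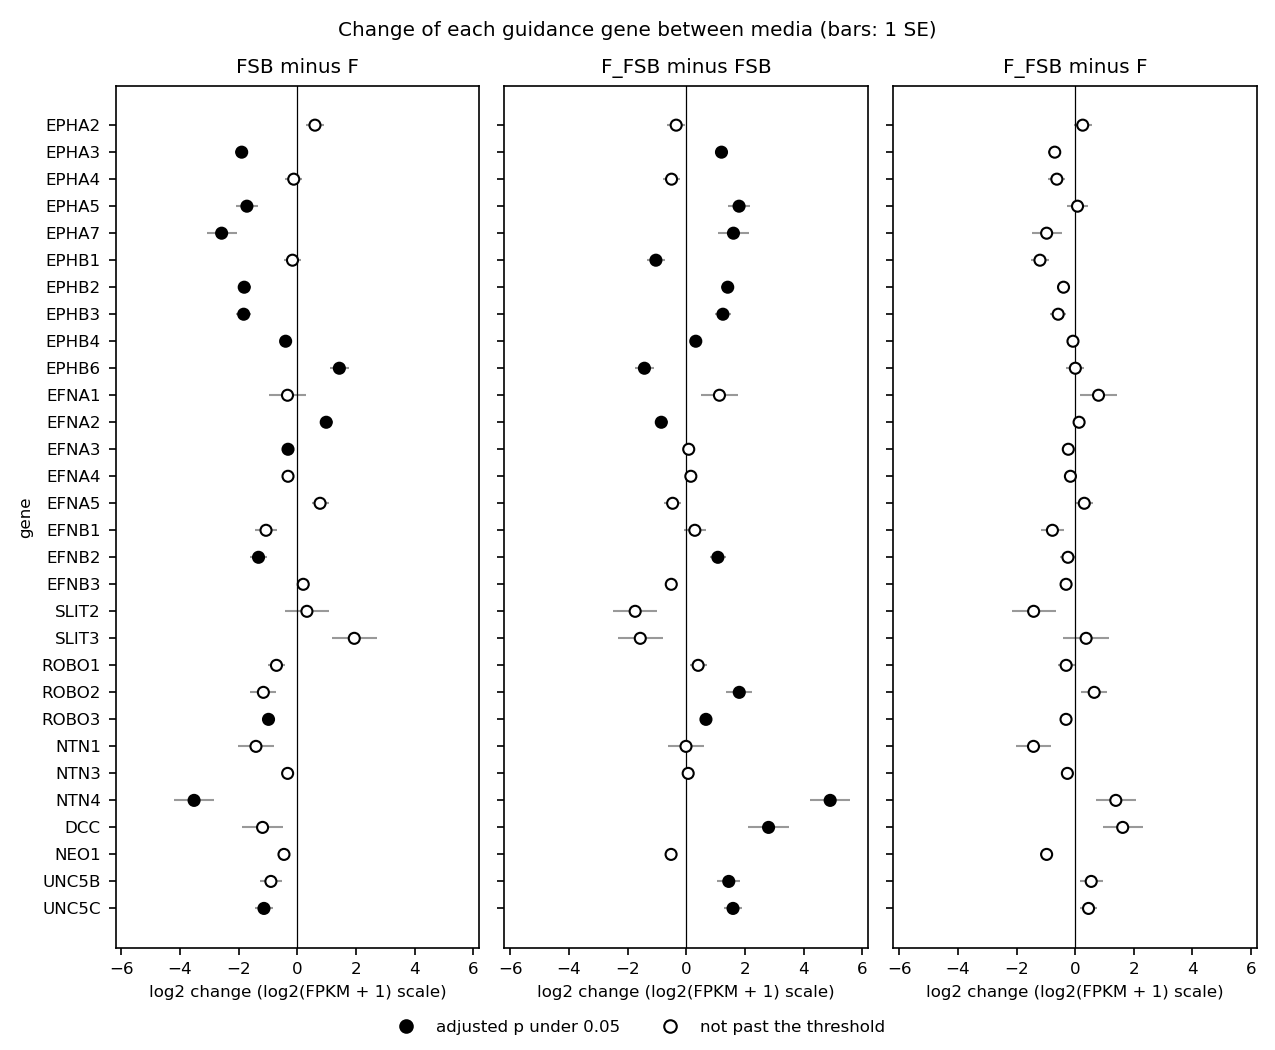
Log2 change of each of the 30 tested guidance genes (horizontal axis, log2(FPKM + 1) scale) in the 3 comparisons, with bars of 1 SE from the limma fit and filled points for an adjusted p under 0.05. In FSB minus F 11 filled points lie left of 0 and 2 right of it, in F_FSB minus FSB 13 lie right and 3 left, and in F_FSB minus F every point is open.

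Among the netrins, NTN4 made up most of the signal in F_FSB and, on average, in F. It had the largest changes of all 30 genes in both comparisons with FSB. NTN4 encodes netrin-4, a secreted protein of basement membranes that binds laminin. Its locus spans chr12:96051583-96184536 on the minus strand of GRCh37, the build of all loci given here, counted from 1. NTN4 was at 56.1, 28.6 and 21.3 FPKM in F_FSB, 0.193, 0.134 and 0.0274 FPKM in FSB and 35.4, 12.02 and 3.45 FPKM in F; values are in the order of replicates 1, 2 and 3, here and below. Every FSB library was under 0.2 FPKM and every other library above 3 FPKM, with no overlap. NTN4 fell in FSB against F (-3.52, SE 0.68, limma BH-adjusted p = 0.00488) and rose in F_FSB against FSB (4.91, SE 0.68, limma BH-adjusted p = 0.00118). Within F the values spread from 3.45 to 35.4 FPKM, and replicate 1, the library closest to F_FSB, was the highest. NTN4 made up 93.7% ± 2.94 of the summed netrins in F_FSB, 7.17% ± 5.24 in FSB and 63.2% ± 24.7 in F (SD, n = 3 each). Over the F libraries this share ran from 48.2% to 91.7%, with replicate 1 the highest.

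NTN1, the founding netrin that draws commissural axons to the midline, was at 0.650, 1.70 and 0.0792 FPKM in F_FSB, 0.513, 0.359 and 1.39 FPKM in FSB and 1.74, 11.4 and 1.73 FPKM in F. It stood high in 1 library only, F replicate 2, and passed the filter only through the libraries of F. Its change in FSB against F was not called (-1.41, SE 0.61, limma BH-adjusted p = 0.0947), and neither was that in F_FSB against FSB (-0.01, SE 0.61, limma BH-adjusted p = 0.991). NTN3, a further secreted netrin, stayed between 0.587 and 1.69 FPKM in all 9 libraries and was called in neither comparison. NTN5 was below the filter, with at most 0.322 FPKM.

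Of the netrin receptors, DCC and the UNC5 genes were low in FSB, and NEO1 was present throughout. DCC, the receptor through which netrin-1 attracts axons, has its locus at chr18:49866542-51062273 on the plus strand. It was at 11.1, 4.89 and 5.93 FPKM in F_FSB, 0.211, 0.133 and 0.0513 FPKM in FSB and 7.94, 0.727 and 0.101 FPKM in F. All F_FSB libraries were above 4 FPKM and all FSB libraries under 0.3 FPKM, while the F libraries spread from 0.101 to 7.94 FPKM, with 1 of 3 in the range of F_FSB. The gene passed the filter only through the libraries of F_FSB, where it was high. DCC rose in F_FSB against FSB (2.81, SE 0.69, limma BH-adjusted p = 0.0125). Its change in FSB against F was not called (-1.19, SE 0.69, limma BH-adjusted p = 0.197), nor under any other setting tried (adjusted p from 0.0658 to 0.520), and without F replicate 1 it came to -0.29.

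UNC5C, a repulsive netrin receptor, was at 8.43, 14.2 and 4.77 FPKM in F_FSB, 2.1, 1.82 and 2.43 FPKM in FSB and 5.78, 6.63 and 5.20 FPKM in F. The FSB libraries lay below all others. UNC5C fell in FSB against F (-1.14, SE 0.30, limma BH-adjusted p = 0.0179), a call that was lost without FSB replicate 1, FSB replicate 2 or F replicate 2 (-1.14 to -1.06, limma BH-adjusted p from 0.0522 to 0.0614), and rose in F_FSB against FSB (1.59, SE 0.30, limma BH-adjusted p = 0.00420). UNC5B, a receptor of the same family that is also known from blood vessels, was at 7.44, 9.10 and 2.92 FPKM in F_FSB, 1.77, 1.48 and 1.38 FPKM in FSB and 6.52, 3.03 and 2.53 FPKM in F. It too was lowest in the 3 FSB libraries. UNC5B rose in F_FSB against FSB (1.45, SE 0.39, limma BH-adjusted p = 0.0178), and this call was lost without F_FSB replicate 1 or 2 or FSB replicate 2 or 3 (1.18 to 1.43, limma BH-adjusted p from 0.0508 to 0.0553). In FSB against F it was not called (-0.90, SE 0.39, limma BH-adjusted p = 0.0933), but it was without F_FSB replicate 3 and with the 2 groups fitted alone (limma BH-adjusted p = 0.0329 and 0.0439, within 0.0329 to 0.257 over all settings).

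NEO1 encodes neogenin and was at 14.1, 9.72 and 10.3 FPKM in F_FSB, 15.3, 14.1 and 20.6 FPKM in FSB and 17.2, 26.9 and 26.3 FPKM in F. The F_FSB libraries were all below those of F and of FSB, by less than 0.1 FPKM at the nearest FSB library, and FSB overlapped with F. Neither FSB against F (-0.46, SE 0.22, limma BH-adjusted p = 0.123) nor F_FSB against FSB (-0.52, SE 0.22, limma BH-adjusted p = 0.0866) was called. Without F replicate 1 both were, at -0.66 and -0.52 (limma BH-adjusted p = 0.0352 and 0.0486, the lowest over all settings, with the highest at 0.309 and 0.242). NEO1 made up 33.8% ± 8.45 of the summed netrin receptors in F_FSB, 80.4% ± 2.75 in FSB and 63.9% ± 16.7 in F, so that in FSB neogenin was most of the netrin receptor signal. UNC5A and UNC5D were below the filter, at no more than 0.0423 and 0.923 FPKM.

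**Figure D3:**
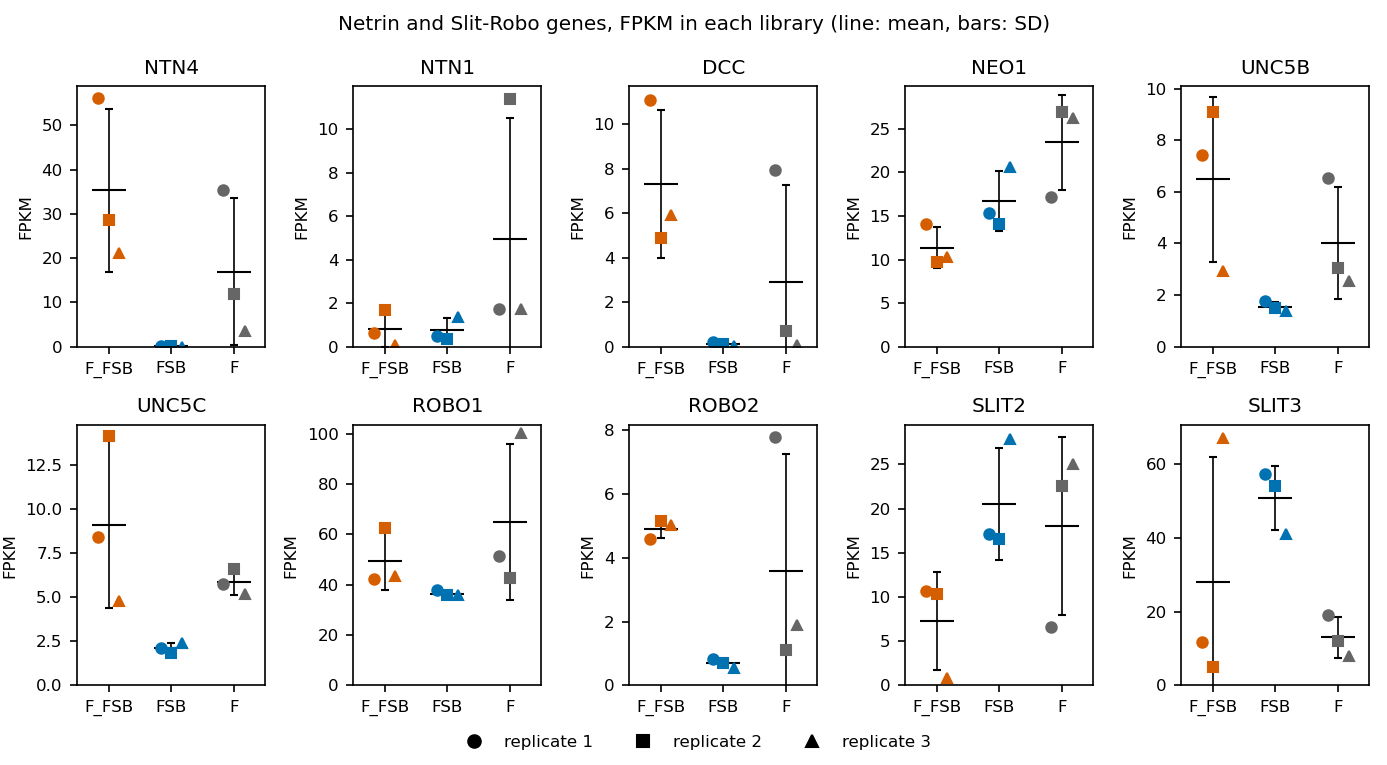
FPKM of 10 netrin, netrin receptor, Slit and Robo genes (vertical axis, a scale per gene) in the libraries of F_FSB, FSB and F (horizontal axis), with the symbol giving the replicate, the line the mean and the bars 1 SD, cut off at 0. NTN4 and DCC lie under 0.3 FPKM in FSB, and F replicate 1 is the highest F library for NTN4, DCC, UNC5B and ROBO2.

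Of the 5 Eph-A receptors that passed the filter, 3 fell in FSB against F and the same 3 rose in F_FSB against FSB, while 13.4% of all genes fell in the first and 13.7% rose in the second. EPHA3, a receptor known from retinal axon mapping in chick, lies at chr3:89156674-89531284 on the plus strand. It was at 1.10, 1.47 and 1.93 FPKM in F_FSB, 0.0549, 0.0926 and 0.0833 FPKM in FSB and 3.01, 1.98 and 4.41 FPKM in F. The 3 groups did not overlap, and F_FSB lay between the others. EPHA3 fell in FSB against F (-1.90, SE 0.22, limma BH-adjusted p = 0.000583) and rose in F_FSB against FSB (1.20, SE 0.22, limma BH-adjusted p = 0.00356).

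EPHA5, a receptor of ephrin-A ligands in the nervous system, was at 4.15, 3.17 and 1.04 FPKM in F_FSB, 0, 0.0181 and 0.0184 FPKM in FSB and 3.84, 2.40 and 1.26 FPKM in F. It was listed at 0 in 1 FSB library and at 0.0184 FPKM or less in the others, while F_FSB and F covered nearly the same range. EPHA5 fell in FSB against F (-1.72, SE 0.37, limma BH-adjusted p = 0.00776) and rose in F_FSB against FSB (1.80, SE 0.37, limma BH-adjusted p = 0.00601). An antisense transcript, EPHA5-AS1, overlaps its exons, and whether the quantification used strand was not known. The same limit holds for EPHA4, EPHA7, EPHB2, EPHB4, EFNB2, DCC, UNC5C, ROBO2 and SLIT3, whose exons also overlap annotated exons on the other strand.

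EPHA7, which in mouse takes part in neural tube closure and cortical patterning, was at 8.78, 6.45 and 2.28 FPKM in F_FSB, 0.813, 0.741 and 1.67 FPKM in FSB and 9.29, 6.26 and 23.2 FPKM in F. The FSB libraries were lowest, and F replicate 3 was the highest library. EPHA7 fell in FSB against F (-2.58, SE 0.51, limma BH-adjusted p = 0.00556) and rose in F_FSB against FSB (1.61, SE 0.51, limma BH-adjusted p = 0.0363). The second call was lost without F_FSB replicate 1, F_FSB replicate 2 or any 1 of the FSB libraries (1.28 to 1.80, limma BH-adjusted p from 0.0514 to 0.107), while the first held under every setting.

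EPHA2 and EPHA4 were the other expressed Eph-A receptors, and averaged within each group they together made up most of the family. EPHA2, a receptor of epithelial cells and many tumours, was at 19.7, 15.2 and 14.3 FPKM in F_FSB, 25.2, 26.1 and 13.8 FPKM in FSB and 20.0, 9.82 and 12.2 FPKM in F. The groups overlapped, and FSB against F was not called (0.60, SE 0.30, limma BH-adjusted p = 0.143). Without FSB replicate 3 or F replicate 1 it was, at 0.88 and 0.87 (limma BH-adjusted p = 0.0421 and 0.0451, within 0.0421 to 0.373 over all settings). EPHA4, which binds ephrins of both classes, was at 5.30, 5.91 and 6.71 FPKM in F_FSB, 7.61, 6.61 and 13.5 FPKM in FSB and 6.76, 14.2 and 9.46 FPKM in F, and was called in neither comparison (log2 changes of -0.12 and -0.50). EPHA2 was 49.8% ± 3.47 of the summed Eph-A receptors in F_FSB, 66.5% ± 16.7 in FSB and 32.6% ± 11.4 in F. In the same order EPHA4 was 18.8% ± 5.94, 29.6% ± 14.7 and 24.9% ± 13.8, and EPHA7 16.8% ± 7.24, 3.45% ± 1.97 and 28.3% ± 15.3.

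All 5 Eph-B receptors passed the filter. Between FSB and F 1 rose and 3 fell, against 28.5% and 13.4% of all genes, and in F_FSB against FSB 3 rose and 2 fell, against 13.7% and 28.2%, with the calls of EPHB4 and EPHB1 lost on leaving out single libraries. EPHB2, a receptor that guides commissural axons and positions intestinal crypt cells in mouse, spans chr1:23037331-23241823 on the plus strand. It was at 14.3, 11.6 and 15.2 FPKM in F_FSB, 4.20, 3.75 and 5.70 FPKM in FSB and 18.8, 24.8 and 13.0 FPKM in F. All FSB libraries were under 6 FPKM and all others above 11 FPKM. EPHB2 fell in FSB against F (-1.81, SE 0.23, limma BH-adjusted p = 0.000844) and rose in F_FSB against FSB (1.41, SE 0.23, limma BH-adjusted p = 0.00220). EPHB3, which acts alongside EPHB2 in mouse palate and crypt, lies at chr3:184279587-184300196 on the plus strand. EPHB3 was at 19.4, 29.5 and 24.2 FPKM in F_FSB, 9.73, 8.94 and 9.93 FPKM in FSB and 27.5, 30.5 and 57.3 FPKM in F. Again the FSB libraries lay together, under 10 FPKM, and the others were above 19 FPKM. EPHB3 fell in FSB against F (-1.83, SE 0.26, limma BH-adjusted p = 0.00138) and rose in F_FSB against FSB (1.25, SE 0.26, limma BH-adjusted p = 0.00648).

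EPHB4, the receptor that pairs with ephrin-B2 on veins, had the highest level of the Eph receptors averaged within each group. It was at 45.8, 37.8 and 40.2 FPKM in F_FSB, 33.4, 33.2 and 31.4 FPKM in FSB and 48.5, 38.5 and 43.8 FPKM in F. The FSB libraries were close together and below all others, with small changes of -0.40 in FSB against F (SE 0.11, limma BH-adjusted p = 0.0174) and 0.32 in F_FSB against FSB (SE 0.11, limma BH-adjusted p = 0.0382). The first was lost without FSB replicate 3 or F replicate 1 (limma BH-adjusted p = 0.0516 and 0.0526, within 0.00686 to 0.0526 over all settings). The second was lost without F_FSB replicate 1 or 3, any FSB library or F replicate 3 (0.25 to 0.34, limma BH-adjusted p from 0.0553 to 0.113). Its exons overlap SLC12A9 on the other strand.

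EPHB6 and EPHB1 were low and did not follow that order. EPHB6, an Eph receptor whose kinase domain is inactive, was at 2.12, 0.836 and 0.415 FPKM in F_FSB, 4.66, 4.46 and 4.11 FPKM in FSB and 1.81, 0.498 and 0.909 FPKM in F. The FSB libraries were the highest, all above 4 FPKM, and the gene passed the filter only through them. EPHB6 rose in FSB against F (1.43, SE 0.31, limma BH-adjusted p = 0.00819) and fell in F_FSB against FSB (-1.43, SE 0.31, limma BH-adjusted p = 0.00783). EPHB1, a receptor of axon crossing at the mouse optic chiasm, was at 0.313, 0.200 and 0.193 FPKM in F_FSB, 2.05, 1.84 and 0.877 FPKM in FSB and 1.03, 1.56 and 3.40 FPKM in F. It was under 0.4 FPKM in F_FSB and at 0.877 FPKM or more elsewhere, and passed only through the libraries of F. EPHB1 fell in F_FSB against FSB (-1.04, SE 0.29, limma BH-adjusted p = 0.0228), and this call was lost without F_FSB replicate 2 or 3 or FSB replicate 1 or 2 (-1.02 to -0.90, limma BH-adjusted p from 0.0531 to 0.0798). In FSB against F it was not called (-0.17, SE 0.29, limma BH-adjusted p = 0.678).

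**Figure D4:**
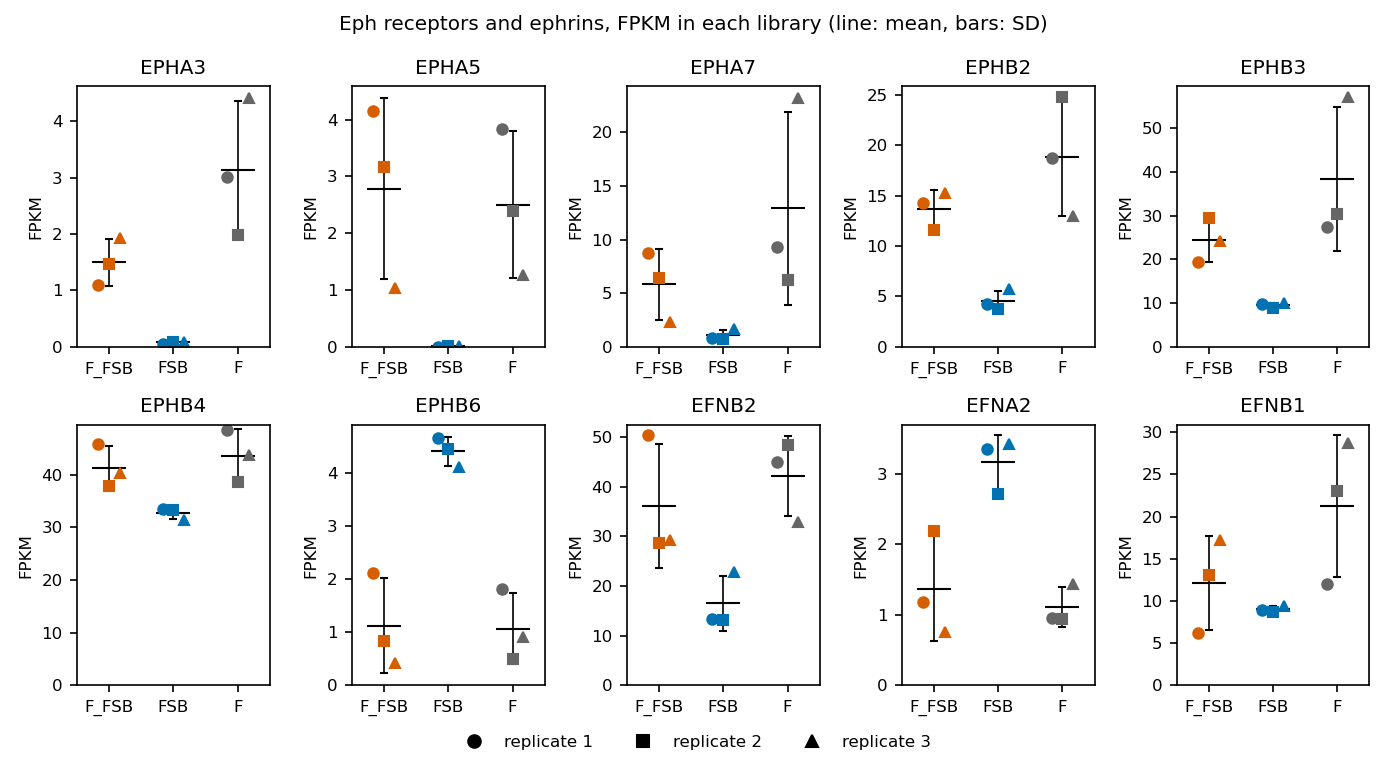
FPKM of 7 Eph receptors and 3 ephrins (vertical axis, a scale per gene) in the libraries of F_FSB, FSB and F (horizontal axis), with the symbol giving the replicate, the line the mean and the bars 1 SD. EPHA3, EPHA5, EPHB2 and EPHB3 are lowest in the 3 FSB libraries without overlap, and EPHB6 and EFNA2 are highest there.

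Among the ephrin-B ligands, EFNB2 was called in both comparisons with FSB, in the same directions as EPHB2, EPHB3 and EPHB4. Ephrin-B2, the arterial partner of EphB4 and a cue for neural crest streams, is encoded at chr13:107142079-107187388 on the minus strand. EFNB2 was at 50.5, 28.6 and 29.3 FPKM in F_FSB, 13.4, 13.3 and 22.9 FPKM in FSB and 45.0, 48.4 and 33.0 FPKM in F. The FSB libraries were all under 23 FPKM and the others above 28 FPKM. EFNB2 fell in FSB against F (-1.32, SE 0.28, limma BH-adjusted p = 0.00740) and rose in F_FSB against FSB (1.08, SE 0.28, limma BH-adjusted p = 0.0166). The second call was lost without FSB replicate 1 or FSB replicate 2 (0.96 and 0.95, limma BH-adjusted p = 0.0609 and 0.0618, the range over all settings being 0.00958 to 0.0618).

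EFNB1, the ligand mutated in craniofrontonasal syndrome, was at 6.21, 13.1 and 17.2 FPKM in F_FSB, 8.99, 8.73 and 9.37 FPKM in FSB and 12.04, 23.0 and 28.7 FPKM in F. FSB lay below every F library, whereas F_FSB spanned from below FSB to within F. Its change in FSB against F was not called (-1.07, SE 0.38, limma BH-adjusted p = 0.0521). It was called without F_FSB replicate 1, F_FSB replicate 3 or F replicate 1 (-1.41 to -1.07, limma BH-adjusted p from 0.0187 to 0.0408), and also after median-ratio scaling (-1.21) or quantile normalization (-1.22) and with the 2 groups fitted alone (limma BH-adjusted p = 0.0273). Over all settings the adjusted p ran from 0.0187 to 0.153. EFNB3, a ligand of the spinal midline in mouse, stood between 6.29 and 14.7 FPKM in all libraries, with its highest value in FSB replicate 3, and was called in neither comparison.

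Of the ephrin-A ligands, which are tied to the membrane by a lipid anchor, EFNA5 and EFNA4 had the highest levels. EFNA5 was at 11.7, 12.6 and 11.5 FPKM in F_FSB, 14.5, 14.3 and 22.8 FPKM in FSB and 14.7, 5.83 and 9.51 FPKM in F. FSB replicate 3 was the highest, and the change in FSB against F was not called (0.77, SE 0.29, limma BH-adjusted p = 0.0630), though it was without F replicate 1 (1.07, limma BH-adjusted p = 0.0138, within 0.0138 to 0.183 over all settings). EFNA4 was between 5.81 and 9.83 FPKM throughout and was not called, but it was lower in FSB than in F after median-ratio scaling or quantile normalization (-0.45 and -0.44, limma BH-adjusted p = 0.0278 and 0.0293, within 0.0278 to 0.272 over all settings).

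EFNA2 was the one ephrin-A ligand called higher in FSB. It was at 1.18, 2.20 and 0.751 FPKM in F_FSB, 3.36, 2.72 and 3.42 FPKM in FSB and 0.951, 0.938 and 1.44 FPKM in F, without overlap between FSB and either other group. EFNA2 rose in FSB against F (0.98, SE 0.22, limma BH-adjusted p = 0.00870) and fell in F_FSB against FSB (-0.85, SE 0.22, limma BH-adjusted p = 0.0151), the second call being lost without FSB replicate 1 (-0.82, limma BH-adjusted p = 0.0514, within 0.00361 to 0.0514 over all settings). EFNA1, a main ligand of EphA2, was at 7.43, 4.52 and 1.24 FPKM in F_FSB, 1.12, 0.889 and 1.47 FPKM in FSB and 5.90, 0.814 and 0.590 FPKM in F. It was high in F_FSB replicates 1 and 2 and F replicate 1 and low in the other libraries, and was called in neither comparison.

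EFNA3 was near the threshold of the filter, at 0.757, 0.710 and 0.952 FPKM in F_FSB, 0.641, 0.756 and 0.710 FPKM in FSB and 1.17, 1.12 and 1.08 FPKM in F, and passed only through F. Its small decrease in FSB against F (-0.32, SE 0.11, limma BH-adjusted p = 0.0416) was lost without F_FSB replicate 1 and without any one library of FSB or F (-0.34 to -0.29, limma BH-adjusted p from 0.0591 to 0.113). EFNA4, EFNA3 and EFNA1 are neighbours on chromosome 1, with gaps of 9.32 and 40.3 kb, and the annotation holds a transcript that joins EFNA4 and EFNA3, so reads of these 2 genes could be split between them.

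The Slit ligands did not pass the threshold in either comparison, and SLIT3 turned on F_FSB replicate 3. SLIT3 was at 11.9, 4.92 and 67.1 FPKM in F_FSB, 57.4, 54.3 and 41.0 FPKM in FSB and 19.1, 12.1 and 8.10 FPKM in F. All FSB libraries and F_FSB replicate 3 were above 40 FPKM, and the other 5 libraries were under 20 FPKM. FSB against F (1.94, SE 0.77, limma BH-adjusted p = 0.0757) and F_FSB against FSB (-1.57, SE 0.77, limma BH-adjusted p = 0.138) were not called. Without F_FSB replicate 3 both were (limma BH-adjusted p = 0.00571 and 0.00436), the first with the same value and the second at -2.56, and without F_FSB replicate 2 the first was (limma BH-adjusted p = 0.0324). Over all settings the adjusted p ran from 0.00398 to 0.187 for the first and from 0.00436 to 0.366 for the second.

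SLIT2 was at 10.6, 10.3 and 0.854 FPKM in F_FSB, 17.1, 16.5 and 27.8 FPKM in FSB and 6.55, 22.6 and 25.1 FPKM in F. F_FSB replicate 3, the highest library for SLIT3, was the lowest for SLIT2, and F replicate 1 was the lowest of F. SLIT2 was called in neither comparison (0.33, SE 0.75, limma BH-adjusted p = 0.753 and -1.74, SE 0.75, limma BH-adjusted p = 0.0964), and without F_FSB replicate 3 the second came to -0.87 (limma BH-adjusted p = 0.231, within 0.0725 to 0.231 over all settings). SLIT2 made up 38.2% of the summed Slits in F_FSB on average, but from 1.26% to 66.3% over its 3 libraries, against 22.9% to 40.4% in FSB and 25.5% to 75.5% in F. The Cufflinks intervals of these values were narrow, at 0.672 to 1.03 FPKM for SLIT2 and 63.4 to 67.9 FPKM for SLIT3 in F_FSB replicate 3. SLIT1 was below the filter, with at most 0.311 FPKM.

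Of the Robo receptors, ROBO1 held most of the signal, with 88.3% ± 2.34 of the family in F_FSB, 95.6% ± 1.26 in FSB and 91.0% ± 5.59 in F (SD, n = 3 each). ROBO1 was at 42.4, 62.6 and 43.4 FPKM in F_FSB, 37.9, 35.9 and 35.8 FPKM in FSB and 51.5, 42.7 and 100.3 FPKM in F. The FSB libraries were lowest and within 3 FPKM of each other, and F replicate 3 was the highest. FSB against F was not called (-0.71, SE 0.29, limma BH-adjusted p = 0.0833), but it was without F replicate 2 (-0.96, limma BH-adjusted p = 0.0388, within 0.0388 to 0.184 over all settings) and after median-ratio scaling or quantile normalization (-0.86 and -0.87), and F_FSB against FSB was not called either (0.40, SE 0.29, limma BH-adjusted p = 0.300).

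ROBO2, which binds the same Slits, was at 4.58, 5.14 and 5.01 FPKM in F_FSB, 0.814, 0.697 and 0.560 FPKM in FSB and 7.77, 1.11 and 1.89 FPKM in F. The 3 F_FSB libraries were close together, the FSB libraries were all below the others, and F spanned the range with replicate 1 on top. ROBO2 rose in F_FSB against FSB (1.81, SE 0.45, limma BH-adjusted p = 0.0131). In FSB against F it was not called (-1.16, SE 0.45, limma BH-adjusted p = 0.0682), whereas without F replicate 1 or F replicate 2 it was (-0.55 and -1.58, limma BH-adjusted p = 0.0329 and 0.0238, within 0.0238 to 0.161 over all settings), as it was with 0.1 added to each value (-1.77). ROBO3, a Robo that in mammals acts in midline crossing and binds Slits poorly, was at 1.16, 0.927 and 1.53 FPKM in F_FSB, 0.485, 0.443 and 0.215 FPKM in FSB and 1.18, 2.21 and 1.87 FPKM in F. It was under 0.5 FPKM in FSB and passed only through F. ROBO3 fell in FSB against F (-0.98, SE 0.18, limma BH-adjusted p = 0.00382) and rose in F_FSB against FSB (0.67, SE 0.18, limma BH-adjusted p = 0.0180), the second call being lost without F_FSB replicate 3 or FSB replicate 3 (0.57 and 0.58, limma BH-adjusted p = 0.0582 and 0.0544, within 0.0113 to 0.0582 over all settings). ROBO4, the endothelial Robo, reached 0.833 FPKM at most. ROBO3 and ROBO4 lie 2.74 kb apart on chromosome 11.

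Set side by side over the comparisons that share FSB, 10 genes were called lower in FSB than in F and higher in F_FSB than in FSB (10 of 30, against 10.4% of all genes tested). They were the receptors EPHA3, EPHA5, EPHA7, EPHB2, EPHB3, EPHB4, ROBO3 and UNC5C and the ligands EFNB2 and NTN4. EFNA2 and EPHB6 were called in the reverse directions in both, as were 23.4% of all genes. EFNA3 was called in FSB against F alone, DCC, EPHB1, ROBO2 and UNC5B in F_FSB against FSB alone, and 13 genes in neither. Whether a gene called in 1 of the 2 differs between them was not tested. The libraries of FSB and F did not overlap for 21 of the 30 genes (57.9% of all genes tested), with 3 higher and 18 lower in FSB (38.7% and 19.2% of all). Those of F_FSB and FSB did not overlap for 21 (55.8%), with 14 higher and 7 lower in F_FSB (19.2% and 36.6% of all). Some of these genes passed the filter only through the group where they were high, which favours a separation. They were EFNA3, NTN1, NTN3 and ROBO3 (lower) and EPHB6 (higher) in FSB against F. In F_FSB against FSB they were DCC (higher) and EPHB6 (lower). ROBO3 also counts among the 10 genes above, and EPHB6 among those called in the reverse directions.

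**Figure D5:**
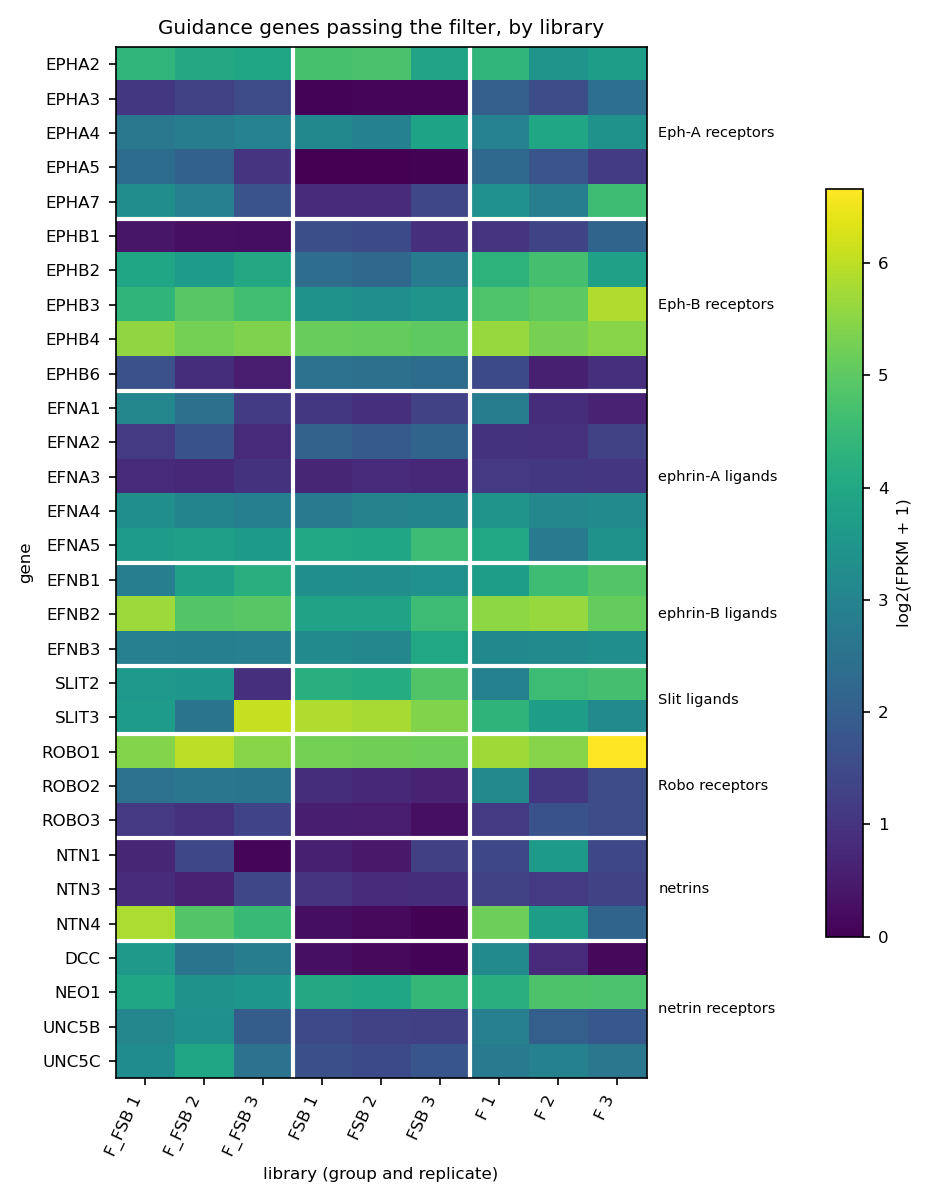
Log2(FPKM + 1) of the 30 guidance genes that passed the filter (down the page, by family) in each library (across), with brighter colours for higher values. FSB is dark for EPHA3, EPHA5, NTN4 and DCC, which lie under 0.3 FPKM there, and F replicate 1 resembles F_FSB in NTN4, DCC, ROBO2 and UNC5B.

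F_FSB was also set against F, 2 groups that were in the same medium at harvest and differ in whether SB431542 was there over the first 4 passages. None of the 30 genes was called by limma in F_FSB against F, and the smallest BH-adjusted p was 0.391, while 1 of all 13216 genes (0.00757%) was called. At an unadjusted p under 0.05 the counts were 5 of 30 guidance genes and 1195 of all genes. The 5 were NEO1 (-0.97), EPHB1 (-1.20), EPHA3 (-0.70), NTN1 (-1.42) and DCC (1.62). The median change was -0.24 over the 30 genes and -0.0021 over all genes. The libraries did not overlap for 7 of the 30 genes, against 13.0% of all genes tested, and in all 7 F_FSB was lower (6.76% of all) and in 0 higher (6.28%), namely EPHA3, EPHA4, EPHB1, EFNA3, EFNB3, NEO1 and NTN1. Of these, EPHB1, EFNA3 and NTN1 passed the filter only through the libraries of F, where they were high, which favours that direction. DCC, among the 5 above, passed only through those of F_FSB. An adjusted p over the threshold does not show that the groups were alike.

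That comparison turned on F replicate 1. With it left out, DCC (2.52) and ROBO2 (1.26) were called higher in F_FSB than in F (limma BH-adjusted p = 0.0315 and 0.0310, the lowest over all settings, with the highest at 0.963 for both), and 77 of all genes were called. In F replicate 1, DCC stood at 7.94 FPKM and ROBO2 at 7.77 FPKM, against 4.89 to 11.1 and 4.58 to 5.14 FPKM in F_FSB and at most 0.727 and 1.89 FPKM in the other F libraries. EFNA1 had the same order, with 5.90 FPKM in F replicate 1 and 0.814 FPKM or less in the other F libraries, but was not called (0.80 with all libraries). These genes were picked out after their values were seen.

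The guidance genes had a wider median spread between replicates than all genes tested in each of the 3 groups, by the least in FSB. The median SD over replicates on the log2 scale was 0.35 for the 30 genes in F_FSB, against 0.17 for all genes, 0.14 against 0.12 in FSB, and 0.52 against 0.15 in F. Counted by the intervals that Cufflinks gives each value, the 3 replicates were all apart from each other for 11 of the 30 genes in F_FSB (36.7%, against 10.2% of all genes), 0 of 30 in FSB (against 4.29%) and 16 of 30 in F (53.3%, against 10.3%). FSB replicates 1 and 2 overlapped for 86.2% of genes tested, which limits how often all 3 can be apart in FSB. There 2 pairs were apart for 14 of the 30 guidance genes, against 3140 of 13216 genes. No count without either of these replicates is given. No pair of replicates was apart for 16.7% of the guidance genes in F_FSB, against 47.2% of all genes, 43.3% against 57.5% in FSB, and 16.7% against 51.1% in F. The genes compared were not alike in size or level, with a median locus of 143.6 kb for the 30 and 26.0 kb for all genes, and a median level of 7.06 and 9.13 FPKM.

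Genes that act with these receptors or are related to their ligands were taken as 3 lists from general knowledge. They came to 65 genes in all, of which 55 were tested. In FSB against F, 17 were higher and 7 lower, and in F_FSB against FSB 6 were higher and 14 lower, while in F_FSB against F 0 of 55 were called by limma and 8 had an unadjusted p under 0.05. The first 2 counts (43.6% and 36.4%) were close to the background of 41.9% and 41.8%. Their median change in FSB against F was 0.15, next to 0.14 over all genes and -0.58 over the guidance genes. Without FSB replicate 2, 15 were called in FSB against F.

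Among 23 tested effectors of Eph signalling, 7 rose in FSB against F and 0 fell, and 6 fell in F_FSB against FSB and 0 rose. That is 30.4% and 26.1% called, against 41.9% and 41.8% of all genes in both directions together. In the same directions, 28.5% of all genes were higher in FSB against F and 28.2% lower in F_FSB against FSB. The counts of these effectors were near those shares. In the other directions the shares of all genes were 13.4% and 13.7%. The 7 were CHN2, FYN, ITSN1, SDCBP, SH2D3C, VAV2 and VAV3. ITSN1, an endocytic scaffold that activates Cdc42 downstream of EphB, was at 15.9 ± 0.350 FPKM in F_FSB, 26.0 ± 0.804 FPKM in FSB and 15.9 ± 0.506 FPKM in F (SD, n = 3 each), with changes of 0.67 in FSB against F and -0.67 in F_FSB against FSB (limma BH-adjusted p = 0.000256 and 0.000269). FYN, a Src-family kinase used by ephrins and Ephs, was at 24.7 ± 1.12 FPKM in F_FSB, 45.0 ± 1.62 FPKM in FSB and 23.9 ± 4.28 FPKM in F, with changes of 0.90 in FSB against F and -0.84 in F_FSB against FSB (limma BH-adjusted p = 0.000921 and 0.00117). VAV2, an exchange factor for small GTPases recruited by Ephs, was at 9.25 ± 0.836 FPKM in F_FSB, 15.2 ± 0.574 FPKM in FSB and 7.76 ± 0.714 FPKM in F, with changes of 0.89 in FSB against F and -0.66 in F_FSB against FSB (limma BH-adjusted p = 0.000393 and 0.00119). CHN2, a Rac GTPase-activating protein, was at 0.614 ± 0.584 FPKM in F_FSB, 5.37 ± 0.969 FPKM in FSB and 0.755 ± 0.316 FPKM in F, with changes of 1.86 in FSB against F and -2.03 in F_FSB against FSB (limma BH-adjusted p = 0.00145 and 0.00102). All 4 were highest in FSB.

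Among 17 tested Slit-Robo co-receptors and effectors, 6 rose and 2 fell in FSB against F, and 2 rose and 5 fell in F_FSB against FSB. The shares called, 47.1% and 41.2%, were near the 41.9% and 41.8% of all genes. SRGAP1, a GTPase-activating protein that binds Robo receptors, was at 6.50 ± 0.572 FPKM in F_FSB, 4.20 ± 0.457 FPKM in FSB and 9.43 ± 1.03 FPKM in F, with changes of -1.0 in FSB against F and 0.53 in F_FSB against FSB (limma BH-adjusted p = 0.000480 and 0.00626). PAK1, a kinase that in fly is brought to Robo by an adaptor, was at 20.8 ± 1.18 FPKM in F_FSB, 14.6 ± 1.08 FPKM in FSB and 23.2 ± 4.05 FPKM in F, with changes of -0.63 in FSB against F and 0.49 in F_FSB against FSB (limma BH-adjusted p = 0.00541 and 0.0145). Both were lowest in FSB. DAG1, the laminin receptor dystroglycan that also binds Slit, was at 39.1 ± 2.44 FPKM in F_FSB, 53.1 ± 3.32 FPKM in FSB and 34.3 ± 4.08 FPKM in F, with changes of 0.62 in FSB against F and -0.43 in F_FSB against FSB (limma BH-adjusted p = 0.00254 and 0.0110). FLRT3, a Robo1 co-receptor and UNC5 ligand, was at 6.37 ± 4.43 FPKM in F_FSB, 23.1 ± 2.30 FPKM in FSB and 6.30 ± 2.78 FPKM in F, with changes of 1.80 in FSB against F and -1.90 in F_FSB against FSB (limma BH-adjusted p = 0.0180 and 0.0141). These 2 were highest in FSB.

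Of the list of netrin relatives and netrin receptor partners, 17 genes were tested. In FSB against F 5 rose and 5 fell, and in F_FSB against FSB 4 rose and 4 fell. That is 58.8% and 47.1% called, against 41.9% and 41.8% of all genes. NTNG1, a membrane-anchored netrin-G that does not bind DCC, was at 1.95 ± 0.901 FPKM in F_FSB, 0.313 ± 0.0849 FPKM in FSB and 8.003 ± 3.27 FPKM in F, with changes of -2.72 in FSB against F and 1.13 in F_FSB against FSB (limma BH-adjusted p = 0.000359 and 0.0123). RGMB, a neogenin ligand and BMP co-receptor, was at 23.2 ± 7.32 FPKM in F_FSB, 6.79 ± 0.480 FPKM in FSB and 25.9 ± 12.2 FPKM in F, with changes of -1.70 in FSB against F and 1.59 in F_FSB against FSB (limma BH-adjusted p = 0.00470 and 0.00584). FLRT2, a ligand of UNC5D, was at 61.9 ± 9.21 FPKM in F_FSB, 28.9 ± 6.34 FPKM in FSB and 56.6 ± 6.43 FPKM in F, with changes of -0.96 in FSB against F and 1.08 in F_FSB against FSB (limma BH-adjusted p = 0.00332 and 0.00189). These 3 were lowest in FSB. PTK2, the focal adhesion kinase that DCC engages, was at 25.3 ± 2.66 FPKM in F_FSB, 37.2 ± 2.02 FPKM in FSB and 25.1 ± 1.90 FPKM in F, with changes of 0.55 in FSB against F and -0.54 in F_FSB against FSB (limma BH-adjusted p = 0.00341 and 0.00340), and was highest in FSB.

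The 9 genes below the filter stayed under 1 FPKM in every library. UNC5D, ROBO4, EPHA6, EPHA8, NTN5, SLIT1, EPHA10, UNC5A and EPHA1 had their highest library at 0.923, 0.833, 0.718, 0.567, 0.322, 0.311, 0.279, 0.0423 and 0.0303 FPKM. Fragment counts are not given with the values, so no limit of detection can be stated for them. EPHA6 was listed at 0 in all 3 FSB libraries and at 0.172 to 0.718 FPKM in F_FSB. At these levels no difference between groups was tested.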

How the data were processed

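RNA-seq was done on 9 libraries, 3 each of F_FSB, FSB and F, which the labels call biological replicates. The authors deposited FPKM per gene with an interval and a status, as stated per the file headers. Per the submitters' processing notes, reads were handled with TopHat2 2.0.12 and Cufflinks 2.1.1 on GRCh37. Options and the use of strand were not given in these sources. Fragment counts and absolute depth are unknown, and antisense and overlapping genes are uncertain. Each library was normalised to its own fragments, so a change in a few abundant genes shifts all others.

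Genes with status OK in all libraries (95 loci had another in some library, no guidance gene among them) and at least 1 FPKM in at least 3 libraries were tested. Values were analysed as log2(FPKM + 1), with a pseudocount of 1, by limma (version 3.58.1, under R 4.3.3), letting the variance follow the mean, all 9 libraries in 1 fit of group means, two-sided, and BH adjustment over 13216 genes at a threshold of 0.05. Differences are FSB minus F, F_FSB minus F and F_FSB minus FSB. Alternatives were a pseudocount of 0.1, no filter, a mean of at least 1 FPKM, median-ratio scaling, quantile normalization, only the groups compared, no trend, a replicate block and leaving out each library. Averaging FSB replicates 1 and 2 as 1 was added after seeing the data. The test was checked on simulated data.

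Every gene of the rule is accounted for. Effectors named are the 3 per list with the smallest adjusted p in either comparison with FSB, and of the markers SOX9, NGFR and NT5E are given with their spread. The guidance genes and the lists were chosen with earlier results of these data known. DRAXIN was found under its older symbol C1orf187. Starts are given 1-based. Relative depth was read from the step between low values of single-exon olfactory receptor genes. Tables and figures were made with pandas 2.3.3 and matplotlib 3.10.9 under Python 3.11.15.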

Additional observations from a re-analysis of the deposited data

How the results depend on the processing

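No call among the guidance genes reversed under any of the 18 alternatives. Of 1617 values of single genes under alternatives, 1535 kept their side of the threshold, 54 lost it and 28 gained it. In FSB against F, 10 of 13 calls held under all 18, and in F_FSB against FSB 9 of 16 did (DCC, EPHA3, EPHA5, EPHB2, EPHB3, EPHB6, NTN4, ROBO2 and UNC5C). The count of all genes called in F_FSB against F, 1 in the fit reported, was 2 with no filter on low values, 0 with a replicate block, 0 with FSB replicates 1 and 2 averaged as 1, and from 0 to 77 when 1 library was left out (77 without F replicate 1, 4 without F replicate 2). Leaving out 1 library gave from 2 to 4 guidance genes higher in FSB than in F, from 1 to 4 lower in F_FSB than in FSB, and from 0 to 2 higher in F_FSB than in F. For the effectors it gave from 15 to 25 called in FSB against F and from 0 to 1 in F_FSB against F. Of all genes called with 1 library left out, from 66.0% to 70.4% were higher in FSB against F. In F_FSB against FSB that share ran from 29.9% to 34.3%. The cause was not tested. Median-ratio scaling and quantile normalization lowered the share of higher calls among all genes in FSB against F to 50.4% and 53.2%, against 68.0%, and gave 2 guidance genes higher with 14 and 13 lower. Over 9 same-numbered pairs the deviations of replicates correlated at r from -0.136 to 0.292. Only the pair of F_FSB replicate 1 and F replicate 1 was over 0.1, and the replicate block was not used. With it 2 guidance genes were higher and 11 lower in FSB against F, and 12 higher and 2 lower in F_FSB against FSB. Of all genes called, 67.3% were then higher in FSB against F and 33.3% in F_FSB against FSB. In the latter EPHA7 and EPHB1 were then no longer called, and in the former EFNA3 was lost and EFNB1 gained. Low genes are limited by a depth that the values do not give.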
